A study of Homo sapiens with 3 samples.

Results

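The globin genes encode the protein chains of hemoglobin and lie in 2 clusters, an alpha-like cluster on chromosome 16 (HBZ, HBM, HBA2, HBA1 and HBQ1) and a beta-like cluster on chromosome 11 (HBE1, HBG2, HBG1, HBD and HBB). The family was chosen by measured values, since levels of HBA1 and HBA2 in these libraries were known when it was proposed, and its members were then taken by gene symbol. All 10 members had 1 row each among the 39320 gene rows on primary references, those with no "_" in the name, of 43389 rows shared by the 3 deposited tables. Their levels are therefore a description, and no test was made on them. RNA was sequenced in 3 libraries labelled HepG2, a long-established line of human liver cancer cells, all of the same WT genotype and with no treatment named, for a study of splice variants of the m6A methyltransferase METTL3 in hepatocellular carcinoma. The libraries were made from polyA RNA and form 1 condition, so no conditions were compared. They are numbered replicates 1 to 3, and nothing says that they came from separate cultures, so the spread between them may be technical. The label was checked against 13 markers of hepatocytes, mostly genes of secreted plasma proteins. Of these 13 markers, 0 reached 1 TPM in all 3 libraries and 10, with albumin (ALB) among them, were listed at 0 in every library. Their summed level was 0.0571, 0.244 and 0.133 TPM in replicates 1, 2 and 3, with TTR the most abundant. This goes against a liver cell label, and the samples are called libraries labelled HepG2 here.

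Hemoglobin is a tetramer of a pair of alpha-like and a pair of beta-like chains, each holding a heme group that binds oxygen. Within each cluster the genes stand in the order in which they are used in development: HBZ and HBE1 serve the embryo, HBG1 and HBG2 the fetus, HBB and the minor HBD the adult, and HBA1 and HBA2 both fetus and adult. High globin expression belongs to cells of the red lineage, where GATA1, TAL1 and KLF1 act through distant enhancers, while HBM and HBQ1 are expressed at low levels and have no established place in hemoglobin.

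The transcripts of HBA1 and HBA2 are close copies, which limits how far their levels can be separated. In GENCODE v44 (GRCh38), the canonical mRNAs of HBA1 and HBA2 have 577 and 576 nt. Their coding sequences of 429 nt had 0 differences, and their 5′ UTRs of 37 nt were the same. All 19 mismatches and the 1 gap between the mRNAs lay in the 3′ UTR, where the first difference was at nt 481 of the mRNA. HBA1, HBA2, HBQ1 and HBE1 had the highest mean TPM of the family. Their last 30 coding bases are given below to show how near the copies are. They are written 5′ to 3′ on the gene's own strand, plus for the alpha-like genes and minus for HBE1, with the stop codon in capitals, and lie in the third exon.
HBA1, chr16:177382-177411: agcaccgtgctgacctccaaataccgtTAA
HBA2, chr16:173571-173600: agcaccgtgctgacctccaaataccgtTAA
HBQ1, chr16:181079-181108: atctcggcgctggtttccgagtaccgcTGA
HBE1, chr11:5268469-5268498: gccattgccctggcccataagtaccacTGA
HBA1 and HBA2 were identical at all 30 of these bases, while HBQ1 matched HBA1 at 19 and HBE1 matched it at 16. Over the whole coding sequence, HBQ1 had 73.0% identity to HBA1, and HBE1 had 56.1%. Of the 428 windows of 150 nt, the read length, in the HBA1 mRNA, 331 (77.3%) occurred unchanged in HBA2. A read from those windows matches both genes on its own, so the split of signal between HBA1 and HBA2 is uncertain, while their sum does not depend on it. The reads were paired, and a mate that covers a difference can separate the genes, which the window count leaves out.

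**Figure D1:**
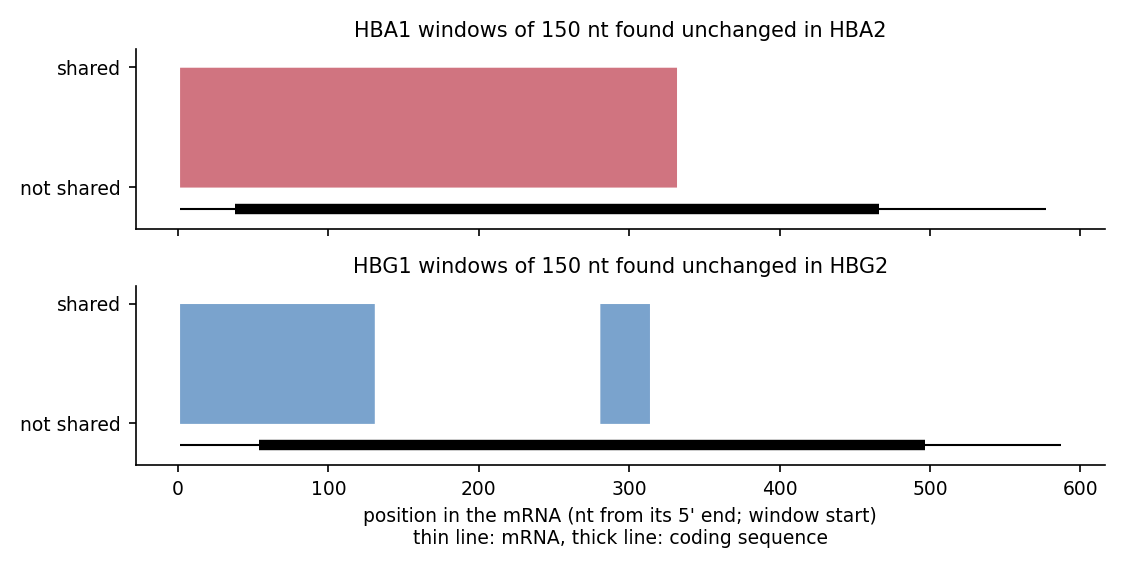
Windows of 150 nt in the mRNAs of HBA1 (top) and HBG1 (bottom) by start position in nt, with filled areas where the same window occurs in HBA2 or HBG2, and the coding sequence as a thick line. The shared windows of HBA1 form 1 block over 331 of 428 starts, and those of HBG1 take 163 of 438 starts.

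The fetal pair HBG1 and HBG2 differed in their coding sequences of 444 nt at 2 positions, C227T and C410G, with HBG1's base first and positions counted from the first base of the start codon. The stretches of 29 bases around both positions are shown since reads that cover a difference separate the pair. They are on the minus strand, in the second and the third exon, and the differing base is in capitals.
HBG1, chr11:5249442-5249470: cttgggagatgccaCaaagcacctggatg
HBG2, chr11:5254366-5254394: cttgggagatgccaTaaagcacctggatg
HBG1, chr11:5248379-5248407: gaagatggtgactgCagtggccagtgccc
HBG2, chr11:5253297-5253325: gaagatggtgactgGagtggccagtgccc
In this pair, 163 of 438 windows of 150 nt (37.2%) were shared, a smaller share than for HBA1 and HBA2.

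The alpha-like genes HBA1 and HBA2 had the highest levels of the family. HBA1 had 38.6, 41.5 and 38.7 TPM in replicates 1, 2 and 3, or 39.6 ± 1.65 TPM (SD, n = 3). HBA2 had 28.2, 28.5 and 26.8 TPM in replicates 1, 2 and 3, or 27.8 ± 0.870 TPM (SD, n = 3). TPM is a relative transcript abundance, scaled for gene length and to the same total in each library. For both genes replicate 2 was the highest, and the lowest HBA1 value lay above the highest HBA2 value. The coefficient of variation was 4.17% for HBA1 and 3.13% for HBA2, beside a median of 4.88% over the 8419 rows with a mean of at least 10 TPM. In bulk RNA, fewer cells with a transcript and less of it per cell cannot be told apart, so these levels do not say how many cells held globin RNA.

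The other scales gave the same order. FPKM, which is scaled for gene length and for the fragments mapped in the library, was 18.2, 19.8 and 18.5 for HBA1 in replicates 1, 2 and 3. For HBA2 it was 13.3, 13.6 and 12.9. Coverage, the mean read depth over the gene, is not scaled for library size. It was 242, 255 and 213 for HBA1 and 177, 175 and 147 for HBA2 in replicates 1, 2 and 3. On coverage, replicate 3 was the lowest for both genes, which was not so for HBA1 on TPM. Coverage per unit of FPKM rises with depth, and its maximum was 13.3, 12.8 and 11.5 in replicates 1, 2 and 3, so replicate 3 was the shallowest. All 22 member values above 0 stood within 0.1% of this maximum, so coverage, FPKM and TPM order the globin genes alike within a library. Over all rows with at least 1 FPKM, 20.5%, 20.7% and 20.6% did so in replicates 1, 2 and 3.

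The ratio of HBA1 to HBA2 in TPM was 1.37, 1.46 and 1.44 in replicates 1, 2 and 3. On the log2 scale with a pseudocount of 1 TPM it was 0.49 ± 0.046 (SD, n = 3), so HBA1 was the higher of the pair in 3 of 3 libraries. Summed, which removes the uncertain split, HBA1 and HBA2 had 66.7, 69.9 and 65.5 TPM in replicates 1, 2 and 3. This pair made up 98.8 ± 0.151% (SD, n = 3) of the alpha-like cluster.

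The remaining alpha-like genes were low. HBQ1, the theta-globin gene, had 0.859, 0.755 and 0.846 TPM in replicates 1, 2 and 3, or 0.820 ± 0.0566 TPM (SD, n = 3). HBM, the mu-globin gene, had 0.0633 TPM in replicate 1 and was listed at 0 in replicates 2 and 3. HBZ, the embryonic alpha-like gene, was listed at 0 in all 3 libraries. Its deposited row runs from 142422 to 154511 on chromosome 16, where the canonical GENCODE v44 transcript begins at 152644.

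In the beta-like cluster the embryonic gene stood apart. HBE1 had 8.61, 9.61 and 8.67 TPM in replicates 1, 2 and 3, or 8.96 ± 0.562 TPM (SD, n = 3). Its FPKM was 4.06, 4.59 and 4.15, and its coverage 54.0, 59.0 and 47.6, in the same order of replicates. As for HBA1 and HBA2, replicate 2 was the highest on the TPM scale. HBE1 took 87.2 ± 0.255% (SD, n = 3) of the summed TPM of its cluster.

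The adult and fetal genes of this cluster were all below 1 TPM. HBB, the adult beta-globin gene, had 0.588, 0.819 and 0.630 TPM in replicates 1, 2 and 3, or 0.679 ± 0.123 TPM (SD, n = 3). HBE1 was 14.6, 11.7 and 13.8 times as high as HBB in replicates 1, 2 and 3. HBD, whose coding sequence has 92.8% identity to that of HBB, was listed at 0 in all 3 libraries. HBG2 had 0.541, 0.479 and 0.465 TPM in replicates 1, 2 and 3, or 0.495 ± 0.0402 TPM (SD, n = 3). HBG1 had 0.102, 0.141 and 0.173 TPM, or 0.139 ± 0.0356 TPM (SD, n = 3). HBG2 was above HBG1 in 3 of 3 libraries, with the split of shared reads uncertain as for the alpha pair.

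**Figure D2:**
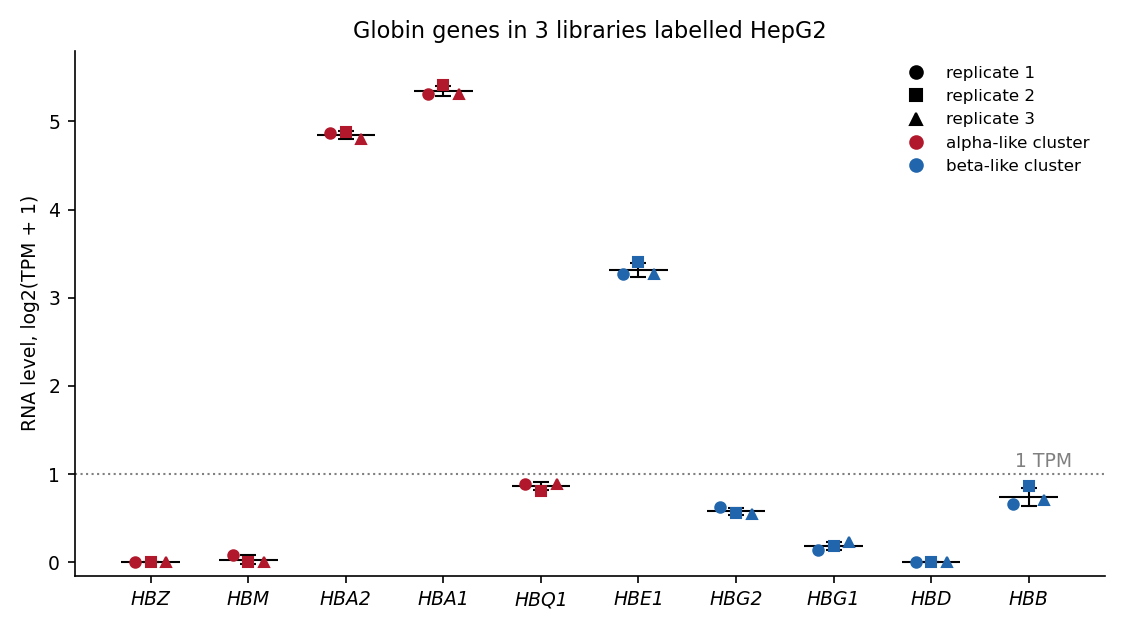
RNA level of each globin gene as log2(TPM + 1) in replicates 1 to 3 (points), with the mean and SD over 3 libraries (black lines), alpha-like genes in red and beta-like genes in blue. HBA1, HBA2 and HBE1 lie above the dotted line at 1 TPM, and the other 7 members lie below it.

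By mean TPM the order of the family was HBA1, HBA2, HBE1, HBQ1, HBB, HBG2, HBG1 and HBM, with HBZ and HBD at 0. The ranges of HBQ1 and HBB over the libraries overlapped, so these neighbours did not differ beyond their spread. HBB stood just above HBG2, its lowest value being 0.588 TPM and the highest of HBG2 0.541 TPM. Each other pair of neighbours from HBA1 down to HBM did not overlap, in an order that was set by the same 3 libraries. The split of HBA1 from HBA2 and of HBG2 from HBG1 is uncertain. HBG1 and HBM rest on very little sequence, so their places carry little weight.

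Of the 10 members, 3 had at least 1 TPM in all 3 libraries, and 13307 of the 39320 rows (33.8%) met the same limit. At least 10 TPM in all libraries was reached by 2 members, HBA1 and HBA2, beside 20.7% of all rows. A value above 0 in all libraries was found for 7 members, beside 47.2% of all rows. The first of these shares is near that of all rows, so the count alone says nothing about the family. Among the 13753 rows with a mean of at least 1 TPM, whose median was 15.4 TPM, HBA1 exceeded 73.6%, HBA2 65.4% and HBE1 36.4%. HBA1 and HBA2 thus lay above the middle of the expressed rows and HBE1 below it.

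Summed over its 5 genes, the alpha-like cluster had 67.7, 70.7 and 66.3 TPM in replicates 1, 2 and 3, or 68.2 ± 2.23 TPM (SD, n = 3). The beta-like cluster had 9.84, 11.0 and 9.94 TPM, or 10.3 ± 0.673 TPM (SD, n = 3). The alpha-like sum was thus 6.88, 6.40 and 6.68 times the beta-like sum, and the clusters did not overlap. The log2 ratio with a pseudocount of 1 TPM was 2.62 ± 0.045 (SD, n = 3). Both sums rest on few genes, HBA1 and HBA2 in the alpha-like and HBE1 in the beta-like cluster, and all 10 members together had 78.5 ± 2.87 TPM (SD, n = 3).

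The number of reads is not known from these tables. Coverage times exonic length, the aligned bases over a gene's exons, was used in its place for the 9 members other than HBZ, whose deposited row begins far from the canonical transcript. For HBG1, whose row is slightly shorter than that transcript, the 584 exonic bases within the row were taken. HBA1 rested on 139591, 146941 and 122630 bases in replicates 1, 2 and 3, and HBE1 on 33621, 36755 and 29680 bases. HBB rested on 2317, 3157 and 2173 bases, which is far less. HBG1 had 375 to 557 bases in a library, or 2.50 to 3.71 times the read length, and the single HBM value rested on 199 bases, or 1.33 times the read length. The values of HBG1 and HBM rest on very little sequence, and their order and spread carry little weight. For HBE1 and HBB the bases were whole numbers within 0.01 in 3 of 3 libraries, and for HBA1, HBA2, HBG1 and HBG2 in 0 of 3. HBQ1 lay between, with whole numbers in 2 of 3 libraries. The single HBM value, of a gene without a close copy, was also not whole, and how the fractions arose was not tested.

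The neighbourhoods of the clusters are described by counts, and the difference between them was not tested. Within 200 kb of the span of the alpha-like cluster there were 17 other rows. Of these, 12 had at least 1 TPM in all 3 libraries and 10 had at least 10 TPM. Over all rows, 33.8% and 20.7% met these limits. NPRL3, whose introns hold the distant enhancers that drive the alpha-globin genes in red cells, had 46.5 ± 2.40 TPM (SD, n = 3). LUC7L, next to HBQ1 on the other side, had 45.9 ± 1.40 TPM (SD, n = 3). The levels of HBA1 and HBA2 thus lay below those of both flanking genes, while HBZ, HBM and HBQ1 lay below 1 TPM between them. The row with the highest level there was MRPL28, a mitochondrial ribosomal protein gene, with 212 ± 3.05 TPM (SD, n = 3).

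The beta-like cluster stands within a large group of olfactory receptor genes, which are active in the nose. Of 18 other rows within 200 kb, 2 had at least 1 TPM in all 3 libraries and 0 had 10 TPM, beside 33.8% and 20.7% of all rows. OR51B5 had 7.18, 7.62 and 6.01 TPM in replicates 1, 2 and 3, or 6.94 ± 0.832 TPM (SD, n = 3). OR51B4 had 5.10, 4.17 and 3.60 TPM, or 4.29 ± 0.760 TPM (SD, n = 3). Both lie beyond the HBE1 end of the cluster, OR51B4 at 31068 bp and OR51B5 at 70937 bp from the HBE1 row, and at the HBB end all 7 olfactory receptor rows had a mean of 0.0128 TPM or less. The lowest HBE1 value, 8.61 TPM, lay above the highest value of both receptor genes. The pseudogene HBBP1 was listed at 0 in all 3 libraries, and BGLT3, a noncoding RNA gene of the cluster, had 0.0964 TPM in replicate 1 and 0 in the others. Of the other 5 listed globin pseudogenes, none had a row, and they were not analysed here.

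**Figure D3:**
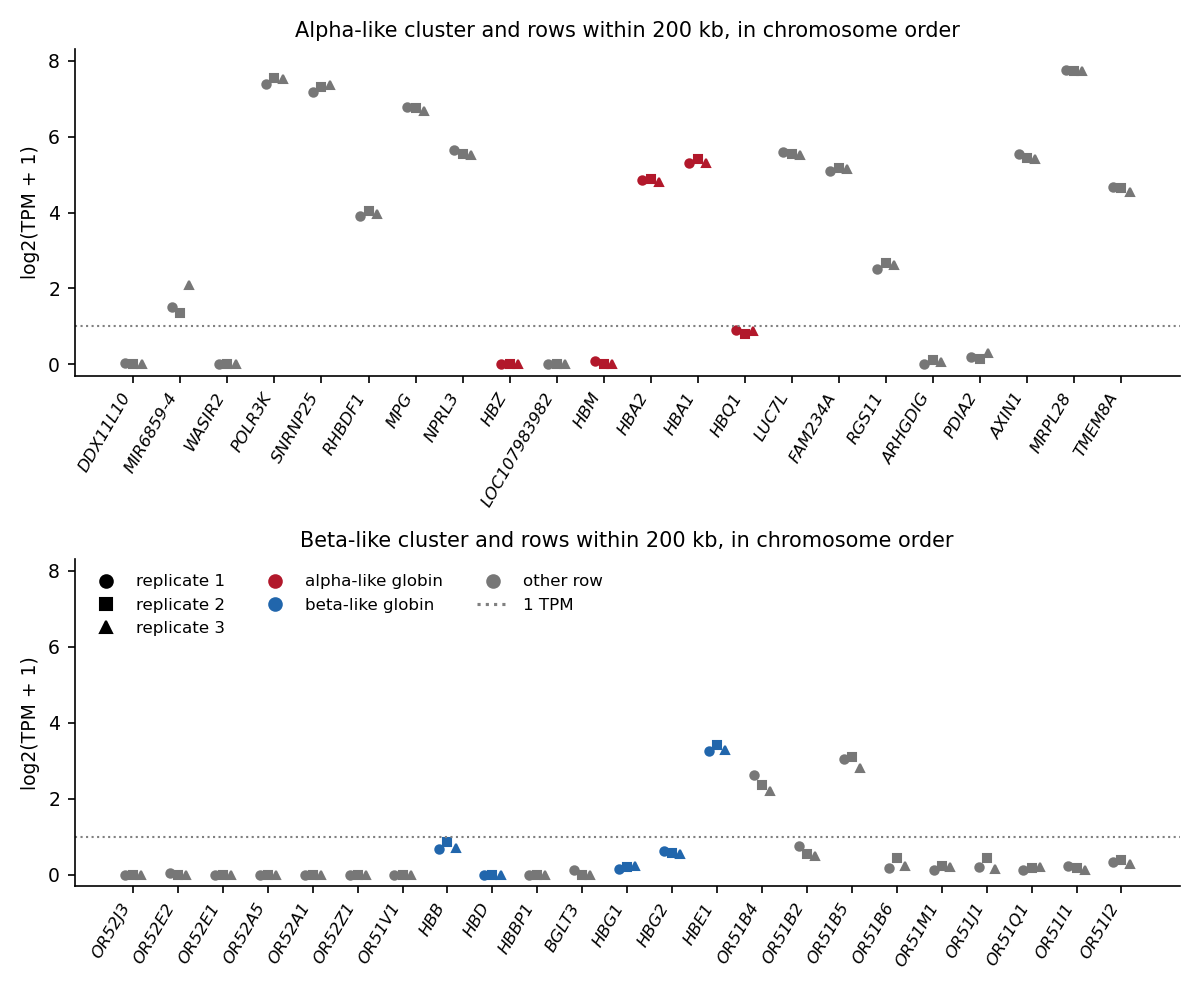
Levels as log2(TPM + 1) in replicates 1 to 3 of the globin genes (coloured) and the other rows within 200 kb (grey) of the alpha-like cluster (top) and the beta-like cluster (bottom), in chromosome order and not to distance. HBA1 and HBA2 stand among expressed rows, and HBE1, OR51B4 and OR51B5 are the rows above the dotted line at 1 TPM in the lower panel.

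GENCODE v44 also holds 3 longer transcripts of the beta-like genes, 2 of HBE1 and 1 of HBG2, that begin within the deposited row of OR51B5. The longest HBE1 transcript begins at 5505652, the same base as that row, and shares 1 exon with a transcript of OR51B5. The deposited HBE1 row, from 5268345 to 5269945, has the start and end of the short canonical transcript with 3 exons and no such upstream exon. The tables give 1 value per gene, so which HBE1 transcript was present was not tested.

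Of 14 listed transcription factors of the red lineage, 4 had at least 1 TPM in all 3 libraries (28.6%), a share near the 33.8% of all rows, so the count sets these factors apart neither from all rows nor from the globin genes. GATA2, a factor of blood stem and progenitor cells and of several other tissues, had 43.2, 45.0 and 43.1 TPM in replicates 1, 2 and 3, above HBA1 in each library by a small margin. RUNX1 followed with 8.88 ± 0.670 TPM (SD, n = 3), and ZFPM1 and SOX6 were above 1 TPM. GATA1, the main activator of globin genes in red cells, had 0.158 and 0.196 TPM in replicates 1 and 2 and was listed at 0 in replicate 3. KLF1, which drives HBB, was listed at 0 in all 3 libraries. All 20 listed regulators of globin genes that most cells express had at least 1 TPM in all 3 libraries, with a median of 37.1 TPM.

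Of 25 red cell genes, 7 had at least 1 TPM in all libraries (28.0%, near the 33.8% of all rows), 11 were listed at 0 in all 3, and the median was 0.0125 TPM. AHSP, the chaperone of free alpha-globin chains, was listed at 0 in all 3 libraries. The highest were XK with 22.0 ± 0.462 TPM and DMTN with 21.8 ± 0.890 TPM (SD, n = 3), a membrane transport protein and a protein of the membrane skeleton. The others at this limit were BPGM, ANK1, ERMAP, EPOR and RHAG, with means of 16.3, 9.10, 7.23, 3.84 and 1.37 TPM. A shorter list of 8 erythroid markers was drawn from the lists of red lineage factors, red cell genes and heme synthesis genes. Of these 8, 0 reached 1 TPM and 4 were listed at 0 in all 3 libraries. Their sum was 0.241, 0.299 and 0 TPM in replicates 1, 2 and 3, so the short list is lower than the red cell genes just named. The most abundant of them was GATA1. Replicate 3, where all 8 were at 0, was the shallowest library. Which cells the globin RNA came from was not tested.

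Markers of other blood cells were low too. Over all rows, 33.8% had at least 1 TPM in all libraries. Of 16 leukocyte and platelet markers, 0 reached 1 TPM in all libraries and 7 were at 0 in all 3, the defining leukocyte gene PTPRC among them. Their sum was 2.79, 2.34 and 2.21 TPM in replicates 1, 2 and 3. What these low levels mean for the source of the globin RNA was not tested. Among 5 endothelial markers 1 reached 1 TPM in all libraries, VWF with 1.36 ± 0.125 TPM, and among 7 fibroblast markers 2 did, with COL1A1 the highest at 6.93 ± 0.564 TPM (SD, n = 3). Of 6 epithelial markers, 3 had at least 1 TPM in all libraries, and the list was split, with means of 2609.6 TPM for KRT8 and 2017 TPM for KRT18 but 0.1097 TPM for KRT19 and 0.030 TPM for EPCAM.

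Heme, the group that globin chains hold, is made in nearly all cells and in large amounts in red cells. Of 15 genes of heme synthesis and its transport steps, 14 had at least 1 TPM in all 3 libraries (93.3%), beside 33.8% of all rows. Their median was 23.3 TPM. ALAS1, the first enzyme of the pathway in most tissues, had 72.4 ± 0.703 TPM (SD, n = 3). ALAS2, its red cell counterpart, had 0.0614 and 0.0809 TPM in replicates 1 and 2 and was listed at 0 in replicate 3. Of 9 genes of heme breakdown and hemoglobin scavenging, 5 had at least 10 TPM in all libraries, beside 20.7% of all rows. BLVRB, a biliverdin reductase, was the highest at 305 ± 5.59 TPM (SD, n = 3). Haptoglobin (HP), which binds free hemoglobin in plasma, had 0.0867 TPM in replicate 1 and was at 0 in replicates 2 and 3. The globins outside the clusters were low too: CYGB had 0.904 ± 0.0555 TPM and MB 0.228 ± 0.0778 TPM (SD, n = 3), and NGB was listed at 0 in all 3 libraries.

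**Figure D4:**
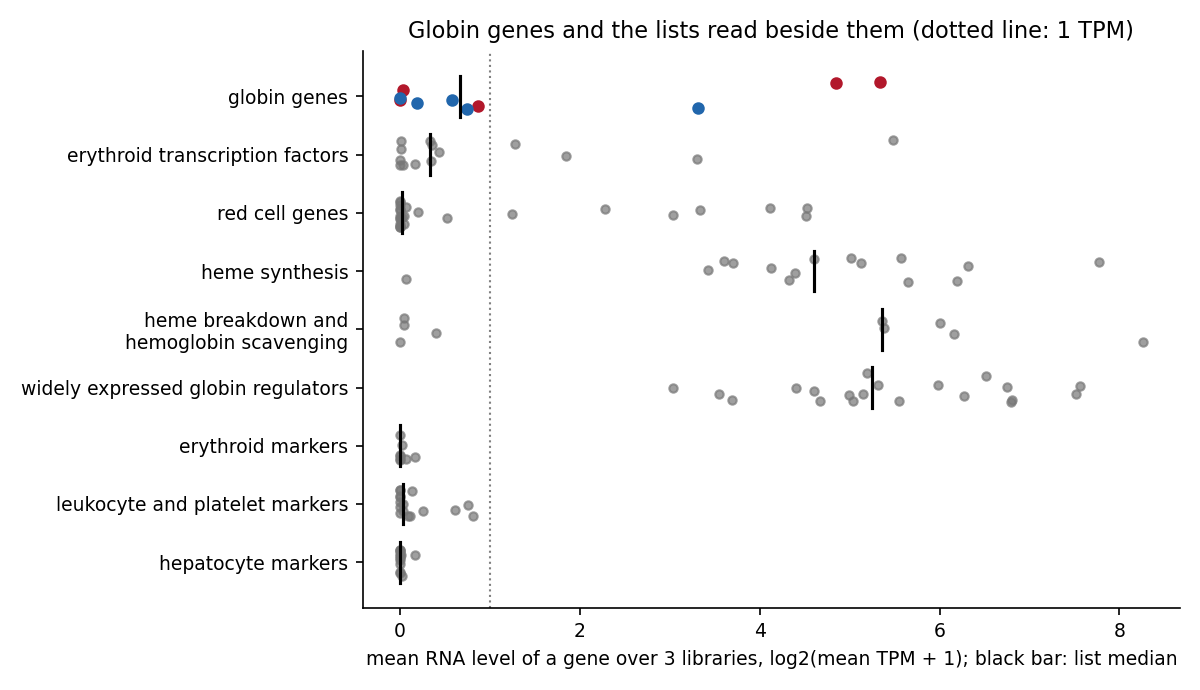
Mean level of each gene over 3 libraries as log2(mean TPM + 1), for the globin genes (red and blue) and 8 gene lists (grey), with list medians as black bars and a dotted line at 1 TPM. HBA1 and HBA2 lie within the range of the expressed heme synthesis genes and HBE1 just below it, while the erythroid, leukocyte and hepatocyte markers all lie below 1 TPM.

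The rows most like HBA1 were taken as the 5 with the smallest Euclidean distance to it in log2(TPM + 1) over the 3 libraries. They were PNPLA6 at a distance of 0.021, NCBP2-AS2 at 0.045, SBNO2 at 0.045, WDR4 at 0.049 and PLAUR at 0.049. With 3 libraries of 1 condition this measure reads little but the level, and PNPLA6 had 39.8 ± 1.46 TPM (SD, n = 3). HBA2 was at 0.86, with 2055 rows nearer to HBA1, and HBE1 at 3.51, with 7849 nearer.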

How the data were processed

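PolyA RNA was sequenced in 3 libraries labelled HepG2, which form 1 group. The authors made 150 bp paired-end reads, and the submitters' processing notes name FastQC 0.11.8, Trim Galore 0.6.2, STAR 2.6.1a, StringTie and GRCh38. The annotation and strand setting are not given in the sources used here. The authors deposited coverage (mean depth, unscaled), FPKM and TPM for each gene, without counts, so the number of reads is unknown and the SD over 3 libraries stands for precision. Tables were merged on symbol, reference, strand, start and end, and 6 rows that differed between tables were left out. Gene lists, rows within 200 kb of a cluster and the 5 rows nearest to HBA1 were named, and members and lists were chosen with earlier results of these data known. No test was made, since 3 libraries of 1 condition allow no sign-flip p under 0.25. Canonical GENCODE v44 transcripts were aligned globally with Biopython 1.88, and the 8 printed stretches were checked to equal the genome. Python 3.11.15, numpy 2.4.6, pandas 2.3.3 and matplotlib 3.10.9 were used. The distance, window and scaling calculations were tested on simulated data. Alternatives were other scalings, units, pseudocounts, minimums and references, and leaving out each replicate.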

Additional observations from a re-analysis of the deposited data

How the results depend on the processing

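Of 53 recalculated values, 43 moved by less than the SD over libraries (or, for the count of globin genes, by no more than 1.5 times), 10 moved further and 0 changed sign. Scaling without the mitochondrially encoded genes, which held 19.9% to 20.2% of TPM, raised HBA1 to 49.5 TPM, HBA2 to 34.8 TPM, the alpha-like sum to 85.4 TPM and the beta-like sum to 12.9 TPM, by its construction. The log2 ratio of the alpha-like to the beta-like cluster was 2.72 with a pseudocount of 0.1, 2.51 on FPKM and 2.71 on coverage, as the weight of the pseudocount differs with the scale. The globin genes at the minimum in all libraries were 6 at a coverage of 1, 7 at 0.1 TPM and 7 above 0. With each replicate left out in turn, HBA1 ranged from 38.6 to 40.1 TPM, HBA2 from 27.5 to 28.3 TPM, the alpha-like sum from 67.0 to 69.2 TPM and the beta-like sum from 9.89 to 10.5 TPM. The log2 ratio of the clusters then ranged from 2.598 to 2.643, that of HBA1 to HBA2 from 0.48 to 0.52, and the count stayed at 3. Depth limits the members below 1 TPM, and reads shared by close copies limit the split between HBA1 and HBA2 and between HBG1 and HBG2.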
